A study of Mus musculus with 16 samples.

Results

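Immunoglobulin transcripts are the messages for the heavy and light chains of antibodies. They were followed here through every probe set whose annotated gene symbol starts with Igh, Igk or Igl, without Ighmbp2 and without Iglon symbols, whose names only look alike. The rule took 58 of the 45101 probe sets on the array: 23 for heavy chains, 29 for kappa light chains and 6 for lambda light chains. Of these, 45 carried 1 symbol and 13 carried several, 29 symbols in all, and none mixed the chain classes. The arrays were described as RNA of tumour-associated macrophages (TAMs) sorted from peritoneal lavage as CD45+, CD11b+, F4/80+ cells and split by the chemokine receptor CCR2. The 4 groups of 4 arrays were labelled CCR2+ control, CCR2+ RbpjiΔEC, CCR2- control and CCR2- RbpjiΔEC. All came from female C57BL/6N mice given 1 mg tamoxifen by gavage at 8 to 12 weeks of age and later ID8-luc ovarian tumour cells of mouse origin, left to grow in the peritoneal cavity for 4 weeks. In RbpjiΔEC mice the Notch pathway transcription factor gene Rbpj is deleted in endothelial cells, so the sorted cells are not the ones in which the gene was removed. The promoter behind that deletion and any pooling of animals are not named in the labels.

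An antibody is built from paired heavy and light chains, and each chain gene is assembled in developing B cells by joining a variable (V) segment, in heavy chains also a diversity segment, and a joining (J) segment, next to a constant (C) region that sets the class. Ighm encodes the constant region of IgM, the class that naive B cells carry on their surface, Ighg3 that of an IgG subclass, and Igha that of IgA, the class of mucosal secretions. Light chains come from the kappa or the lambda locus, and most mouse B cells use kappa. The peritoneal cavity houses resident macrophages together with B cells, among them the self-renewing B-1 cells. Macrophages bind finished antibodies through Fc receptors. The members follow these roles: 26 probe sets were annotated to V segments alone, 18 to a constant region alone, and 5 and 3 to mixtures of constant with variable or with variable and joining segments, while 6 carried a locus name such as Igk or the lambda-like gene Igll1. Ighm occurred in 15 members, Ighg3 in 7, Igha in 3 and Igkc, the kappa constant region, in 3, and no member was annotated to Ighd, Ighe or Ighg1.

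Values are log2 intensities after quantile normalization over the 16 arrays, and a difference of 1 is a doubling. The faintest readable level was taken from a bacterial trp control that mouse RNA should not bind, 6.52 to 6.60 as group means, and a group at or below it gives only a lower bound for a fold. At or below that level in both CCR2+ groups were 14 members, and 5 of them were so in all 4 groups. Deposited array means were 821 to 827 for the CCR2+ label and 481 to 762 for the CCR2- label, so the label and any difference in how the columns were made cannot be told apart. Ccr2 itself, given here on 1 of its 4 probe sets, ranged from 6.87 to 9.27 over the CCR2+ control arrays and from 9.02 to 11.51 over the CCR2- control arrays. The ranges overlap, and the direction goes against the labels (difference -1.99, SE 0.64, limma adjusted p = 0.0192). In RbpjiΔEC mice the difference was -1.26 (SE 0.64, limma adjusted p = 0.139). "CCR2+ arrays" and "CCR2- arrays" therefore name the deposited label only, and every direction below rests on it. Of the sorting markers, Ptprc, which encodes CD45, read 12.50 to 13.32 over the CCR2+ arrays and 12.78 to 13.29 over the CCR2- arrays. Adgre1, which encodes F4/80, and Itgam, which encodes CD11b, read at least 13.05 and 12.57 in every CCR2+ array, but at most 9.48 and 9.56 in every CCR2- array. At the level of mRNA this goes against the macrophage name for the CCR2- arrays. For them, the TAM name and the sorting gate are the deposited description only. Rbpj read 11.36 ± 0.16 and 11.43 ± 0.29 in the CCR2+ control and RbpjiΔEC arrays (SD, n = 4 each), which checks nothing about endothelial cells.

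The promoters of V segments share an 8-base element, the octamer, that is read by POU factors and the B cell coactivator encoded by Pou2af1. Among the members only Igll1 had a promoter sequence at hand, so its promoter is shown with those of Vpreb3 and Blnk, 2 genes of the pathway lists that hold the octamer. Each runs from 250 bases before to 50 bases after the gene start in RefSeq (GRCm38.p6), with the octamer, if present, in capitals. Igll1 lies at chr16:16863936-16864235 (minus strand), Vpreb3 at chr10:75948050-75948349 (plus strand) and Blnk at chr19:40994172-40994471 (minus strand).
Igll1: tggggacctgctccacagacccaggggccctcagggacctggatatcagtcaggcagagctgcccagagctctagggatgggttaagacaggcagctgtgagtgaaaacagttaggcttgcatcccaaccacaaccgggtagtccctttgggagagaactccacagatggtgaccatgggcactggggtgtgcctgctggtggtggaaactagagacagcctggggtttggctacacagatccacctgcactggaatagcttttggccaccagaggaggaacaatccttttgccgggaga
Vpreb3: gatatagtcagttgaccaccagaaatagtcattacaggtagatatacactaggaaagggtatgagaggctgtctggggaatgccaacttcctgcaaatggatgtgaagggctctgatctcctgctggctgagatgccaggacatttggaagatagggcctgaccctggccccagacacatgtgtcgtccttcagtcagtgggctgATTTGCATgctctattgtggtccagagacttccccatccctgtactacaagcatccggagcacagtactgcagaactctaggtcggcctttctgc
Blnk: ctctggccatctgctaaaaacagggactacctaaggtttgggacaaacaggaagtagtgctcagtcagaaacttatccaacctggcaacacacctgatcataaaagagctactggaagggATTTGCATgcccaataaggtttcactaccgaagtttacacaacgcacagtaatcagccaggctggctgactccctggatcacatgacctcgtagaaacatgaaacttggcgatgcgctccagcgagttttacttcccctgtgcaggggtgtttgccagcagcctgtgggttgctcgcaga
The letters searched were ATGCAAAT on both strands, so that the capitals read ATTTGCAT where the match is on the opposite strand, 45 bases upstream of the start in Vpreb3 and 130 in Blnk. The octamer was in 570 of all 32851 promoters of this length (1.74%) and in 3 of the 63 promoters of 50 listed pathway genes, the last being that of the B cell kinase gene Prkcb. A second element of V promoters, the heptamer CTCATGA, was in 876 promoters (2.67%) and in those of Pou2f2 and Tnfrsf17 among the listed genes. The window of Igll1 held neither string.

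Which chain transcripts separate the sorted subsets was read first in control mice. Transcripts of all 3 chain classes were lower in the CCR2+ arrays, with log2 differences down to -6.19 for kappa, -5.98 for heavy and -5.68 for lambda chains among probe sets above the trp control in both groups. Of the 58 members, 48 were lower at a limma adjusted p under 0.05 and 0 were higher, where 21.3% of all probe sets tested were lower, 18.9% higher and 40.2% either. These were 19 of 23 heavy, 24 of 29 kappa and 5 of 6 lambda probe sets. The median difference was -2.23 over all members, -0.85 for heavy, -3.20 for kappa and -4.49 for lambda chains, against -0.03 over all 45037 probe sets tested. With the 10 members that give only a bound set at that bound, the median over all members was -1.88, and those of the 3 classes stayed as given. In 49 members every CCR2+ array lay below every CCR2- array, which held for 19.3% of all probe sets. A difference of at least 3 in size was found in 23 members, against 1.72% of all probe sets. In bulk RNA fewer cells of a type and less RNA per cell cannot be told apart. The B cell markers Cd79a, Cd79b, Ms4a1, Blk and Pax5 were all 5 lower, with a mean level per array of 7.03 to 7.46 under the CCR2+ label and 12.33 to 12.60 under the CCR2- label in control mice, and the part of these cells in the immunoglobulin result was not tested.

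**Figure D1:**
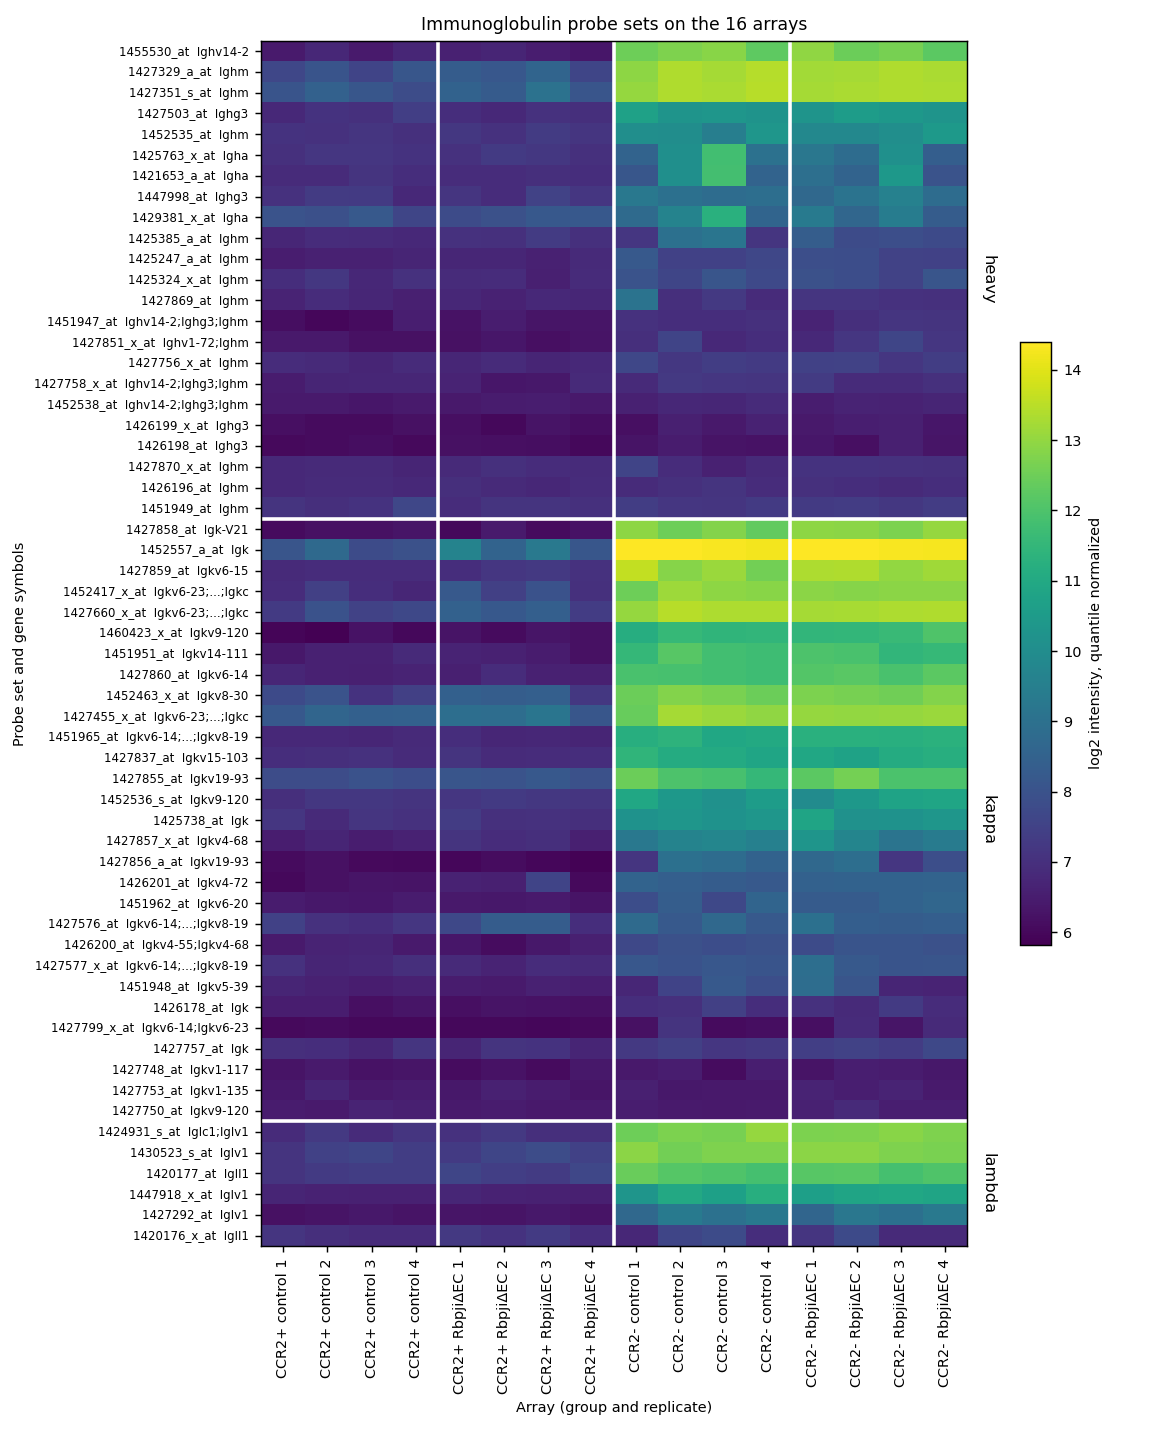
Log2 quantile normalized intensity (colour scale) of the 58 immunoglobulin probe sets (rows, grouped as heavy, kappa and lambda and ordered by the label difference in control mice) on the 16 arrays (columns, by group and replicate). The left 8 columns, labelled CCR2+, are dark in nearly all rows, the right 8 are bright in the upper rows of each class, and the lowest rows of each class read nearly alike in all 4 groups.

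Among the heavy chains, the IgM constant region differed by more than 5 log2 units on 2 probe sets. Ighm read 8.05, 8.48, 8.11 and 7.81 in the CCR2+ control arrays and 13.05, 13.37, 13.31 and 13.48 in the CCR2- control arrays on 1427351_s_at. The 2 groups lay far apart, at a difference of -5.19 (SE 0.18, limma adjusted p = 7.17e-13), a 36.5-fold lower level. A second Ighm probe set, 1427329_a_at, differed by -5.40 (SE 0.18, limma adjusted p = 4.84e-13). The V segment Ighv14-2 on 1455530_at gave 6.46, 6.78, 6.45 and 6.75 on the CCR2+ control arrays and 12.49, 12.74, 12.87 and 12.26 on the CCR2- control arrays. Its CCR2+ values sat close to the trp control, and its difference of -5.98 (SE 0.16, limma adjusted p = 3.02e-14) was the largest among heavy chain probe sets.

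The other 2 heavy chain classes differed less. For the IgG class gene Ighg3, 1427503_at read 6.82, 7.09, 7.03 and 7.43 in the CCR2+ control arrays against 10.72, 10.27, 10.33 and 10.21 in the CCR2- control arrays, a difference of -3.29 (SE 0.13, limma adjusted p = 4.43e-12). On 1447998_at the difference was -1.91 (SE 0.18). The remaining 2 probe sets of Ighg3 alone, 1426198_at and 1426199_x_at, were at or below the trp control in all 4 groups and differed by -0.24 and -0.32 (limma adjusted p = 0.0385 and 0.0195). The first lost its call without CCR2+ control array 1, 2 or 4 or CCR2- control array 1, 2 or 3 (-0.26 to -0.18), and the other without CCR2+ control array 3 or CCR2- control array 2 or 4 (-0.30 to -0.26). Igha, the IgA constant region, gave 6.89, 6.87, 7.11 and 6.94 on the CCR2+ control arrays and 8.11, 10.09, 11.84 and 8.56 on the CCR2- control arrays on 1421653_a_at. The CCR2+ arrays lay close together, whereas the CCR2- arrays ranged over 3.73 log2 units, yet the groups did not overlap. The 3 Igha probe sets were all called, at differences of -2.70 (SE 0.61), -2.75 (SE 0.50) and -1.63 (SE 0.43), with limma adjusted p = 0.0019, 0.000319 and 0.00551.

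Probe sets of the same heavy chain gene did not give the same answer. Of the 11 annotated to Ighm alone, 7 were lower in the CCR2+ control arrays, with differences from -5.40 to -0.04. The middle of that range held 1452535_at at -2.91 (SE 0.16), 1425385_a_at at -1.28 (SE 0.36) and 1425247_a_at at -1.09 (SE 0.15). Not called were 1427869_at at -0.81 (SE 0.33), 1427870_x_at at -0.19, 1426196_at at -0.13 and 1451949_at at -0.04. On 1427869_at the first CCR2- control array read 9.08 where the others read 6.98, 7.23 and 6.86. Without that array the difference was -0.29, which passed (limma adjusted p = 0.0322), and it also passed without the second (-0.995) or the fourth (-1.03) CCR2- control array, at adjusted p of 0.0336 and 0.0222. The 3 probe sets that share Ighv14-2, Ighg3 and Ighm differed by -0.81, -0.44 and -0.34, and 1427851_x_at, shared by Ighv1-72 and Ighm, by -0.77. In every one of these 4 the values lay below 7.60 in the CCR2+ and CCR2- control arrays alike.

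**Figure D2:**
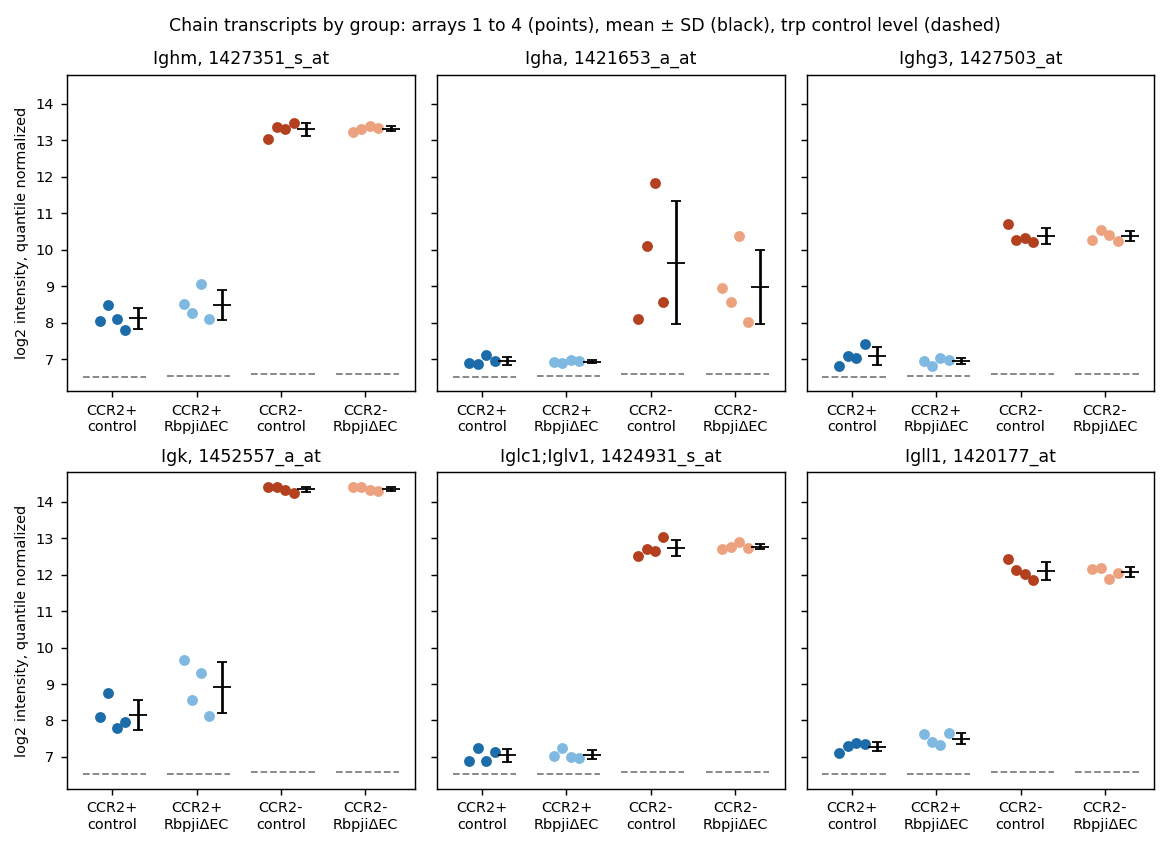
Log2 quantile normalized intensity (y axis) on the 4 arrays of each group (points, replicates 1 to 4 from left to right) with mean ± SD in black and the trp control level dashed, for 6 probe sets of heavy, kappa and lambda chains and Igll1. Probe sets were picked from these same values: the one with the highest mean over all arrays, or for Igha the largest SD in CCR2- control arrays. The groups labelled CCR2+ and CCR2- do not overlap in any of the 6 panels, which does not hold for every other probe set of these genes. The Igha panel shows the wide spread of the CCR2- control arrays, from 8.11 to 11.84.

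Kappa chains held the largest single differences. The locus probe set 1452557_a_at, annotated to Igk, gave 8.09, 8.74, 7.79 and 7.96 on the CCR2+ control arrays and 14.39, 14.39, 14.32 and 14.24 on the CCR2- control arrays. Its difference was -6.19 (SE 0.26, limma adjusted p = 9.86e-12), a 73.0-fold lower level. The highest value any probe set took after normalization was 14.54, so the CCR2- values of Igk lay close to the top of the scale, which limits what a difference between these arrays can show. The 3 probe sets that include Igkc, the kappa constant region, together with Igkj1 and 3 V segments differed by -5.85, -5.68 and -4.50 (SE 0.20 to 0.22). On 1452417_x_at, the first of these, the CCR2+ control arrays read 6.91, 7.46, 6.95 and 6.76 and the CCR2- control arrays 12.51, 13.15, 12.95 and 12.86, with a wide gap between the groups. The other 3 Igk probe sets differed by -3.20 (SE 0.13), -0.72 (SE 0.12) and -0.32 (SE 0.12). The smallest of these, 1427757_at, was called at a limma adjusted p of 0.0406 and lost the call without CCR2+ control array 1, 2 or 3 or CCR2- control array 1, 2 or 4 (adjusted p = 0.0572 to 0.127).

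Single V segments of the kappa locus covered a wide range. Igk-V21 on 1427858_at read 6.09, 6.21, 6.22 and 6.32 in the CCR2+ control arrays, all below the trp control, and 12.94, 12.50, 12.79 and 12.33 in the CCR2- control arrays. Measured against the trp control it was at least 69.5-fold lower, and the difference between the readings was -6.43 (SE 0.13, limma adjusted p = 1.96e-15). Igkv6-15 read 6.84, 6.92, 6.92 and 6.90 against 13.60, 12.83, 13.11 and 12.58, a difference of -6.13 (SE 0.16) or 70.2-fold. Neither group overlapped the other in either segment.

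In the order of the kappa locus, 13 V segments were covered by 16 probe sets that carry 1 symbol and have a position in RefSeq. This order was looked at after the values were seen. From the end farthest from the constant region, the differences in control mice were 0.05 for Igkv1-135, 0.09, -3.39 and -5.40 for the 3 probe sets of Igkv9-120, and -0.07 for Igkv1-117. Then came -5.19 for Igkv14-111, -4.15 for Igkv15-103, -4.11 and -2.29 for Igkv19-93, -2.17 for Igkv4-72 and -2.95 for Igkv4-68, which shares a source record with the Igkv19-93 probe sets. Nearest to the constant region were -0.99 for Igkv5-39, -5.03 for Igkv8-30, -1.71 for Igkv6-20, -6.13 for Igkv6-15 and -5.19 for Igkv6-14. In 4 of these probe sets the CCR2+ control arrays averaged at or below the trp control and the CCR2- control arrays above it. These give only bounds: at least 29.5-fold lower for the -5.40 of Igkv9-120, 3.61-fold for the -2.29 of Igkv19-93, 3.60-fold for Igkv4-72 and 3.03-fold for Igkv6-20. Igkv1-135 and Igkv1-117 averaged at or below the trp control in both control groups and give no bound. The 3 probe sets of Igkv9-120 spread as far as different segments. Igkv1-135, Igkv1-117 and 1427750_at of Igkv9-120 read between 6.11 and 6.72 in every control array, at about the trp control level, and none was called. The sign of 2 of them is not settled, since their differences turned negative under median centring (-0.069 for 1427750_at, -0.12 for Igkv1-135).

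Lambda chains were covered by few probe sets. The constant region probe set 1424931_s_at, shared by Iglc1 and Iglv1, gave 6.89, 7.24, 6.89 and 7.14 on the CCR2+ control arrays and 12.51, 12.71, 12.64 and 13.03 on the CCR2- control arrays, a difference of -5.68 (SE 0.11, limma adjusted p = 1.47e-15) or 51.4-fold. The 3 probe sets of the V segment Iglv1 alone differed by -5.34 (SE 0.12), -4.15 (SE 0.14) and -2.81 (SE 0.14), the last a bound of at least 5.94-fold. Igll1 encodes lambda 5, part of the surrogate light chain that pre-B cells pair with a new heavy chain, and its sequence resembles lambda constant regions, so signal from lambda chains cannot be told apart from its own. On 1420177_at it gave 7.11, 7.29, 7.37 and 7.36 on the CCR2+ control arrays and 12.44, 12.13, 12.02 and 11.86 on the CCR2- control arrays, a difference of -4.83 (SE 0.12, limma adjusted p = 1.75e-14). Its other probe set, 1420176_x_at, read 7.13, 6.97, 6.88 and 6.88 against 6.78, 7.60, 7.78 and 6.94, groups that overlap, and was not called (-0.31, SE 0.21). The 2 probe sets of this gene therefore disagree.

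In RbpjiΔEC mice the label comparison was read on other arrays. Of the 58 members, 47 were lower in the CCR2+ arrays and 0 higher, where 20.3% of all probe sets were lower, 17.5% higher and 37.8% either, and the median difference was -2.03. With the 15 members that give only a bound set at that bound, the median was -1.89. In 51 members every CCR2+ array lay below every CCR2- array (20.2% of all probe sets). Called in both genotypes were 45 members, in control mice alone 3, in RbpjiΔEC mice alone 2, and in neither 8. These counts are to be read beside the 40.2% and 37.8% of all probe sets called in control and RbpjiΔEC mice. How many of all probe sets were called in both was not counted, and the 2 comparisons share 1 estimate of the spread. The largest differences were those of Igk-V21 at -6.71 (SE 0.13), Igkv6-15 at -6.12 (SE 0.16), Ighv14-2 at -6.04 (SE 0.16) and the lambda probe set 1424931_s_at at -5.71 (SE 0.11). Igk-V21 read 6.00, 6.44, 6.08 and 6.23 in the CCR2+ RbpjiΔEC arrays and 12.95, 12.91, 12.69 and 13.05 in the CCR2- RbpjiΔEC arrays, at least 82.8-fold apart. Ighm on 1427351_s_at read 8.51, 8.27, 9.05 and 8.09 against 13.22, 13.30, 13.38 and 13.35, a difference of -4.83 (SE 0.18). Igha on 1421653_a_at differed by -2.05 (SE 0.61, limma adjusted p = 0.0137), but by -1.58 without the third CCR2- RbpjiΔEC array (adjusted p = 0.0545). Igha on 1429381_x_at, at -0.91 (SE 0.43), was not called (limma adjusted p = 0.108) unless the third CCR2- control array was left out of the shared spread (adjusted p = 0.0097). Igkv5-39 was called at -1.08 (SE 0.39, limma adjusted p = 0.0389), and lost the call without any 1 of the 4 CCR2+ RbpjiΔEC arrays or the first or second CCR2- RbpjiΔEC array, where the difference was -1.11 to -0.65. In control mice it missed the threshold, unless CCR2- control array 1 or CCR2- RbpjiΔEC array 1, 3 or 4 was left out, at -0.99 (SE 0.39, limma adjusted p = 0.0541). The mixed V probe set 1427576_at, at -0.70 (SE 0.26, limma adjusted p = 0.0458), lost its call in 11 of the 16 omissions of 1 array, most clearly without the fourth CCR2+ RbpjiΔEC array (-0.40, adjusted p = 0.164). Calls were also lost in 13 omissions for 1452538_at, shared by Ighv14-2, Ighg3 and Ighm (-0.20), and in 9 for 1427799_x_at, shared by Igkv6-14 and Igkv6-23 (-0.54). The first was at or below the trp control in both CCR2+ groups, and the second in all 4 groups.

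**Figure D3:**
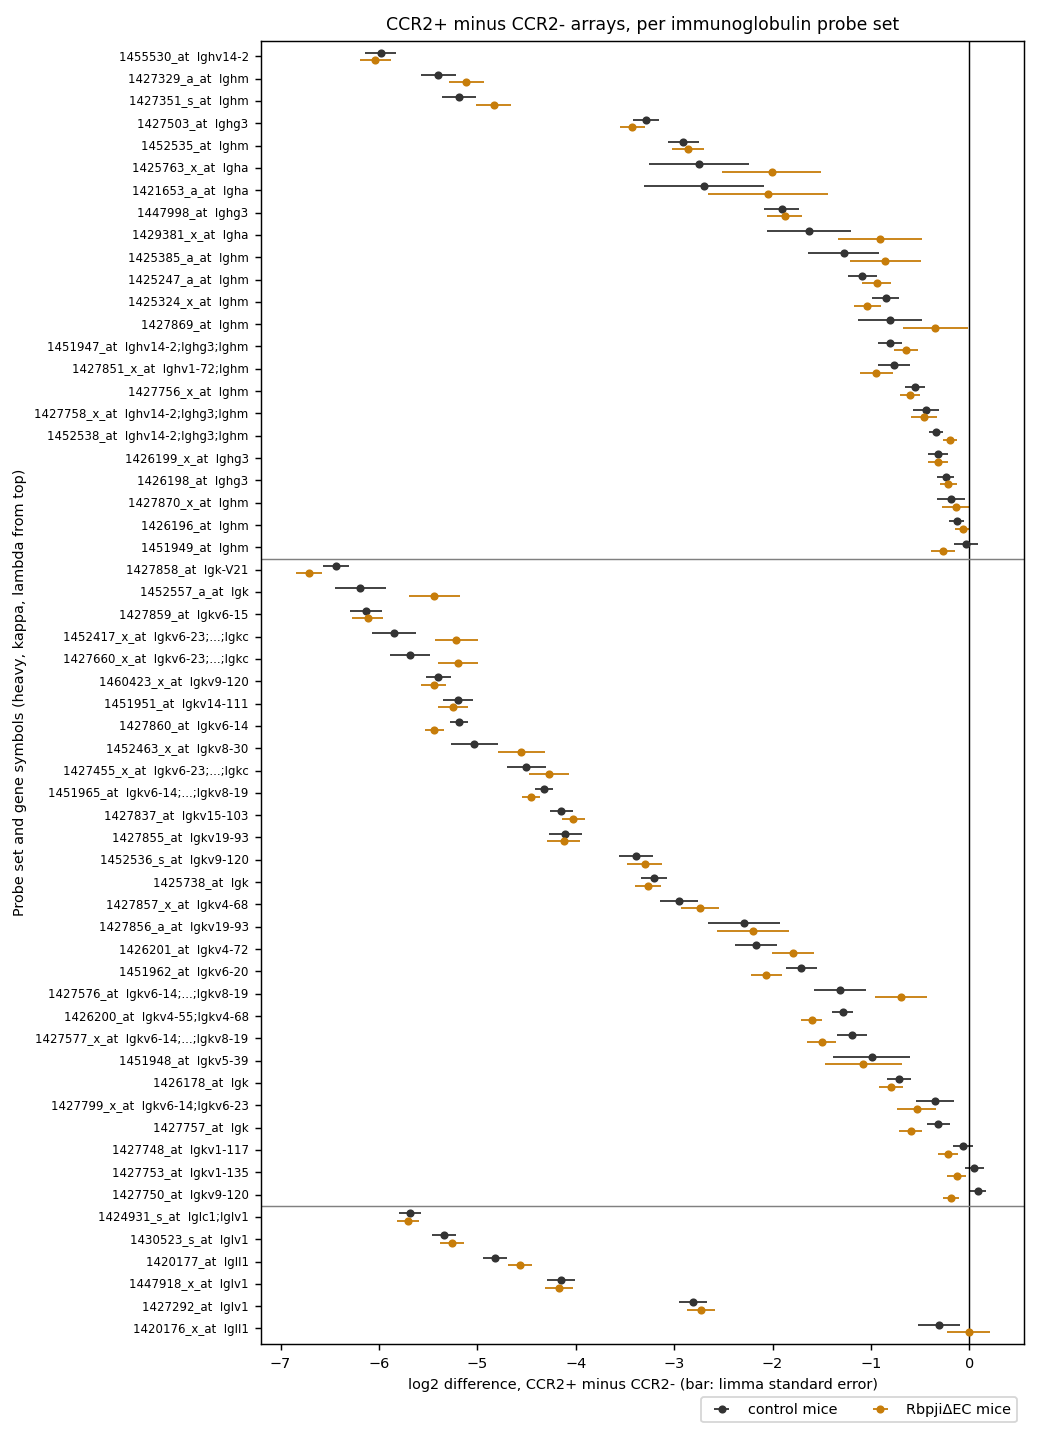
Log2 difference CCR2+ minus CCR2- (x axis) of each of the 58 probe sets (rows, heavy, kappa and lambda from the top), with limma standard error bars, in control mice (black) and RbpjiΔEC mice (orange). The points of the 2 genotypes lie at most 0.75 log2 units apart in every row, and all lie at or left of 0 apart from Igkv1-135 and 1 Igkv9-120 probe set in control mice.

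The partners of these chains were lower as well. The B cell receptor list holds the signalling chains and kinases that sit behind surface immunoglobulin. Of all probe sets, 21.3% were lower and 18.9% higher in control mice, and 20.3% and 17.5% in RbpjiΔEC mice. In each genotype 14 of the 15 measured genes of the list were lower under the CCR2+ label and 1 was higher. In RbpjiΔEC mice Plcg2 and Pik3cd lost that call and turned positive without further normalization (0.030 and 0.086, limma adjusted p = 0.939 and 0.803). Cd79a, a signalling partner of membrane IgM, gave 7.76, 7.79, 7.35 and 7.70 on the CCR2+ control arrays and 12.53, 12.93, 12.75 and 12.91 on the CCR2- control arrays. Its difference of -5.13 (SE 0.11) was close to that of the main Ighm probe sets. Ms4a1, which encodes CD20, differed by -6.46 (SE 0.18) and the kinase gene Blk by -5.84 (SE 0.12). The exception was Cd81, a tetraspanin found on many cell types, at 0.26 (SE 0.08, limma adjusted p = 0.0124). The median of the list was -2.72.

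Of 9 measured transcription factor genes that act on immunoglobulin loci, 8 were lower and 1 higher in both genotypes, with a median of -1.58 in control mice. The shares of all probe sets lower and higher were 21.3% and 18.9% in control and 20.3% and 17.5% in RbpjiΔEC mice. Pou2af1, the coactivator of octamer-binding factors, gave 6.42, 7.0, 6.57 and 6.68 on the CCR2+ control arrays and 12.40, 12.37, 12.53 and 12.54 on the CCR2- control arrays, a difference of -5.79 (SE 0.15). Spib, an ETS factor of lymphocytes, differed by -5.24 (SE 0.12), while Pou2f2, the octamer-binding factor itself, differed by -1.58 (SE 0.18) from 8.73 ± 0.32 to 10.31 ± 0.16 (SD, n = 4 each). Spi1, the PU.1 gene of myeloid and B cells, was the one that was higher, by 0.94 (SE 0.17).

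Genes of antibody-secreting cells were split. In control mice 7 of 12 were lower, 1 was higher and 4 were not called, and in RbpjiΔEC mice the counts were 8, 2 and 2. Beside these, 21.3% and 18.9% of all probe sets were lower and higher in control mice, and 20.3% and 17.5% in RbpjiΔEC mice. Mzb1, a chaperone of IgM assembly, differed by -5.01 (SE 0.13), Jchain, which joins IgM and IgA into polymers, by -2.72 (SE 0.41, at least 5.07-fold lower), and Prdm1, the Blimp-1 gene, by -2.11 (SE 0.15). The plasma cell markers Sdc1, which encodes CD138, and Tnfrsf17, which encodes BCMA, differed from these. Sdc1 gave 7.88, 7.48, 7.19 and 7.91 on the CCR2+ control arrays and 8.04, 7.45, 7.70 and 7.73 on the CCR2- control arrays, overlapping and not called, and Tnfrsf17 was higher by 0.36 (SE 0.10) with all control arrays at or below 7.12. Xbp1, the secretory factor gene, was not called in control mice (0.48, SE 0.25) and was higher in RbpjiΔEC mice (0.67, SE 0.25, limma adjusted p = 0.0463), a call lost in 10 of the 16 omissions of 1 array (adjusted p up to 0.122). The call of Tnfrsf17 was lost under median centring (0.24) and without normalization (0.30).

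Of 6 measured genes of V(D)J rearrangement, class switching and the surrogate light chain, 2 were lower and 2 higher in control mice, and 2 and 1 in RbpjiΔEC mice. These are to be read beside the 21.3% and 18.9% of all probe sets lower and higher in control mice, and 20.3% and 17.5% in RbpjiΔEC mice. The 2 called higher in control mice were the recombinase genes Rag2, at 0.41 (SE 0.10), and Rag1, at 0.30 (SE 0.11, limma adjusted p = 0.0465). Rag1 read between 5.93 and 6.59 over the 16 arrays, at or below the trp control in each group. Neither call held under median centring or without further normalization. Vpreb1, the partner of Igll1 in the surrogate light chain, averaged 7.07 ± 0.27 on CCR2+ control arrays and 7.08 ± 0.22 on CCR2- control arrays (SD, n = 4 each), a difference of -0.01 (SE 0.13), whereas Igll1 differed by -4.83 on 1420177_at. Vpreb3, whose promoter is shown above, differed by -0.57 (SE 0.15) and Blnk, the adaptor whose promoter is also shown, by -2.94 (SE 0.17). Ung, a DNA repair enzyme of class switching, differed by -1.09 (SE 0.30).

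The receptors that bind antibodies went both ways. Under the CCR2+ label 6 of 11 measured receptor genes were higher and 4 lower, in either genotype. Of all probe sets, 18.9% were higher and 21.3% lower in control mice, and 17.5% and 20.3% in RbpjiΔEC mice. Higher were the macrophage Fc gamma receptors Fcgr3, by 3.98 (SE 0.27), Fcgr4, by 3.57 (SE 0.34), and Fcgr1, by 3.22 (SE 0.16), and the neonatal receptor Fcgrt, by 2.23 (SE 0.24). Lower were Fcmr, the IgM receptor of lymphocytes, at -4.66 (SE 0.26, at least 22.9-fold), and Fcer2a, the IgE receptor CD23, at -2.12 (SE 0.16). Pigr and Fcamr, which bind polymeric antibodies, were lower too, at -0.65 (SE 0.19) and -0.69 (SE 0.12).

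Markers of other cells that the gate could hold were read beside these values. All 9 macrophage markers were higher in the CCR2+ arrays in both genotypes, where 18.9% (control) and 17.5% (RbpjiΔEC) of all probe sets were higher. The mean level of these markers per control array was 12.70 to 12.87 against 8.76 to 9.26. The list for T and NK cells had 8 measured genes, of which 2 were lower in control mice and 3 in RbpjiΔEC mice. Among them was Cd2 at -5.58, which B cells of mice also carry, and the other called in both genotypes was the CD3 chain gene Cd3g, at -1.17 (SE 0.31, limma adjusted p = 0.0067) in control and -0.90 (SE 0.31, limma adjusted p = 0.0337) in RbpjiΔEC mice, where it was lost without CCR2+ RbpjiΔEC array 1, 2 or 4 or CCR2- RbpjiΔEC array 2 or 4. The CD3 chain genes Cd3e, at -0.16 in control mice, and Cd3d, at -0.00041, were not called. Of 4 dendritic cell markers 3 and 2 were lower, of 6 mesothelial and epithelial markers 2 and 3, and of 6 neutrophil markers 0 in either genotype. Such counts, and those of T and NK cells, are to be read beside the share of all probe sets lower. That share was 21.3% in control and 20.3% in RbpjiΔEC mice. The 5 plasma cell markers had a mean level of 6.83 to 7.01 on CCR2+ control arrays and of 8.62 to 9.07 on CCR2- control arrays. What share each cell type had in the immunoglobulin values was not tested.

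Within the groups the members were not equally steady. An SD above 0.5 log2 units was found for 0 of 58 members in the CCR2+ control arrays, 6 in CCR2+ RbpjiΔEC, 7 in CCR2- control and 6 in CCR2- RbpjiΔEC, against 1.67%, 2.49%, 3.18% and 1.91% of all probe sets in the same order. The SD of Igha on 1421653_a_at was 1.69 in the CCR2- control arrays, above 99.9978% of all probe sets, and the highest of the 4 arrays was 13.3-fold above the lowest. All 3 Igha probe sets had the same highest array in each CCR2- group, the third, at 11.84, 11.79 and 11.27 in control and 10.38, 10.13 and 9.41 in RbpjiΔEC mice. In the control group the second array came next, at 10.09, 10.11 and 9.64.

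The J chain, which IgA and IgM polymers need, read 8.12, 9.08, 10.01 and 8.26 in the CCR2- control arrays, in the same order as Igha for its 2 highest. In the CCR2- RbpjiΔEC arrays it read 8.00, 7.87, 9.58 and 9.27, so the third array was highest for both, but the fourth array was high for Jchain and lowest for Igha, at 8.02 on 1421653_a_at. Ighm on 1427351_s_at stayed between 13.05 and 13.48 and Cd79a between 12.53 and 12.93 over the same 8 arrays. Ighm on 1425385_a_at behaved differently, with 7.19, 9.0, 9.14 and 7.16 in the CCR2- control arrays, again high in the second and the third. In the CCR2- RbpjiΔEC arrays it read 8.36, 7.79, 7.89 and 7.76, highest in the first and not in the third.

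All 6 measured neutrophil genes were also highest in the second and then the third CCR2- control array. Their mean level per array ran from 6.94 to 9.74 there, from 6.96 to 7.17 in the CCR2- RbpjiΔEC arrays and from 7.16 to 8.79 in the CCR2+ control arrays. Ngp, a granule protein gene, read 7.54, 10.62, 8.83 and 7.26 in the CCR2- control arrays, highest in the second and then the third, while Igha was highest in the third. In the CCR2- RbpjiΔEC arrays Ngp read 7.40, 7.34, 7.19 and 7.32, with no rise in the third array, in which Igha read 10.38. The part of these cells in the IgA values was not tested.

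**Figure D4:**
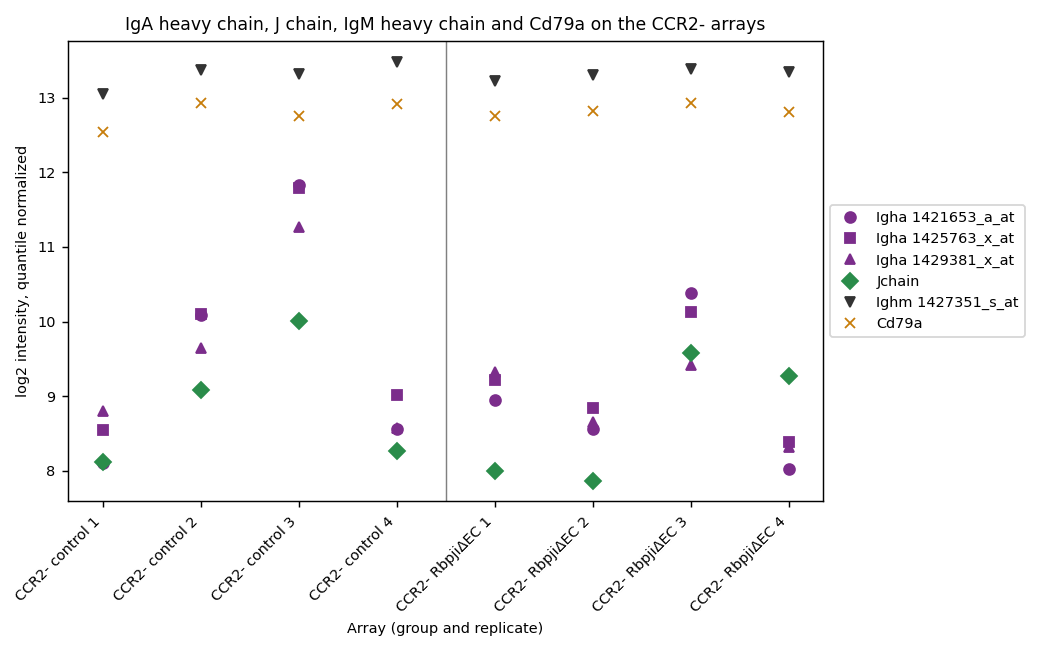
Log2 quantile normalized intensity (y axis) of the 3 Igha probe sets, Jchain, Ighm (1427351_s_at) and Cd79a on the 8 CCR2- arrays (x axis, control on the left of the line and RbpjiΔEC on the right). Ighm and Cd79a stay between 12.53 and 13.48, while Igha ranges from 8.02 to 11.84 and is highest in the third array of each group.

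The kappa V segments Igkv5-39 and Igkv19-93 also varied. In the CCR2- control arrays Igkv5-39 was highest in the third, as was Igha. There 1427856_a_at of Igkv19-93 was highest in the second and then the third. In the CCR2- RbpjiΔEC arrays the third, highest for Igha, was high for neither. Igkv5-39 read 6.74, 7.56, 8.20 and 7.90 in the CCR2- control and 8.89, 8.07, 6.72 and 6.68 in the CCR2- RbpjiΔEC arrays, so both groups ran from the trp control level to clearly above it. Igkv19-93 on 1427856_a_at read 7.15, 8.98, 8.86 and 8.51 in the CCR2- control and 8.71, 8.92, 7.20 and 7.90 in the CCR2- RbpjiΔEC arrays. Its other probe set, 1427855_at, stayed between 11.53 and 12.60 over the same 8 arrays.

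The genotype comparison asks what endothelial loss of Rbpj changes in the sorted cells. In the CCR2+ arrays no immunoglobulin probe set changed at a limma adjusted p under 0.05: 0 of 58 were called, where 0.00222% of all probe sets, 1 in number, were. At an unadjusted p under 0.05 there were 6 members, all kappa, or 10.3%, against 5.16% of all probe sets. They overlap in annotation: 1452417_x_at and 1427660_x_at carry the same symbols, among them the Igkv8-30 of 1452463_x_at. Over all members differences ran from -0.21 to 0.76 with a median of 0.02. Of the 58, 36 were positive, or 62.1%, against 50.2% of all probe sets. The largest was that of Igk on 1452557_a_at, which read 8.09, 8.74, 7.79 and 7.96 in control and 9.67, 8.56, 9.29 and 8.12 in RbpjiΔEC arrays. The first and the third RbpjiΔEC arrays lay above all control arrays, and the remaining ones lay among them. The difference was 0.76 (SE 0.26, limma adjusted p = 0.937, exact permutation p = 0.143).

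Other kappa probe sets were also high in some of these RbpjiΔEC arrays. On 1452417_x_at, which includes Igkc, the RbpjiΔEC arrays read 8.23, 7.46, 7.99 and 7.0 against 6.91, 7.46, 6.95 and 6.76 in control, a difference of 0.65 (SE 0.22, limma adjusted p = 0.937, exact permutation p = 0.0857). On 1427576_at they read 7.69, 8.31, 8.33 and 6.94 against 7.48, 7.05, 6.94 and 7.20, a difference of 0.65 (SE 0.26). Igkv4-72 read 6.65, 6.59, 7.60 and 6.06 against 6.01, 6.22, 6.32 and 6.26, with 1 array well above the rest. The lowest of the RbpjiΔEC arrays was the fourth in all of these. Cd79a read 7.75, 7.84, 7.71 and 7.61 and Cd79b 7.24, 7.68, 7.28 and 7.25 in the same RbpjiΔEC arrays, against 7.35 to 7.79 and 7.05 to 7.53 in control. Jchain read 6.53, 6.11, 7.05 and 6.05 there and 6.04 to 6.29 in control. Its 2 highest arrays were the same as for Igk, in the other order. However, Jchain averaged at or below the trp control in both CCR2+ groups. Its value of 6.53 was at the trp control level of these RbpjiΔEC arrays, 6.53, and only 7.05 lay clearly above it. Groups did not overlap in 2 members, both higher in RbpjiΔEC, where 1.94% of all probe sets were so and 1.30% were lower in the same way. These were Ighm on 1425385_a_at, with 7.0 to 7.32 against 6.75 to 6.92, and Igkv6-15, with 6.96 to 7.26 against 6.84 to 6.92, and for each the exact permutation p was 0.0286, the smallest that 4 against 4 arrays can give.

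In the CCR2- arrays the result was the same: 0 of 58 members were called between genotypes, as were 0% of all probe sets, and 2 members, or 3.45%, had an unadjusted p under 0.05, against 2.31% of all. Groups did not overlap in 1 member, 1427750_at of Igkv9-120, higher by 0.19 (0.850% of all probe sets were higher and 0.717% lower in this way). The IgM constant region on 1427351_s_at differed by 0.01 (SE 0.18) and on 1427869_at by -0.45 (SE 0.33). The smallest p belonged to Igkv6-14, which read 11.93, 11.90, 11.79 and 11.74 in control and 12.10, 12.19, 11.93 and 12.23 in RbpjiΔEC arrays, a difference of 0.27 (SE 0.09, limma adjusted p = 1.00). Its groups overlap only at 11.93. The 3 Igha probe sets had the most negative differences, -0.72 (SE 0.50), -0.67 (SE 0.61) and -0.64 (SE 0.43), each within the spread of the arrays.

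The interaction, the genotype difference in CCR2+ minus that in CCR2- arrays, was not called for any member either, with 0 of 58 and 0% of all probe sets. An unadjusted p under 0.05 was found for 1 member, or 1.72%, against 3.43% of all probe sets. The interaction ran from -0.36 to 0.75. The highest value was that of Igk on 1452557_a_at, 0.75 (SE 0.37, limma adjusted p = 0.998), and the smallest p belonged to 1427750_at of Igkv9-120 at -0.28 (SE 0.12), a probe set at about the trp control level in every group. By this test, the label difference of no member was shown to depend on the genotype.

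**Figure D5:**
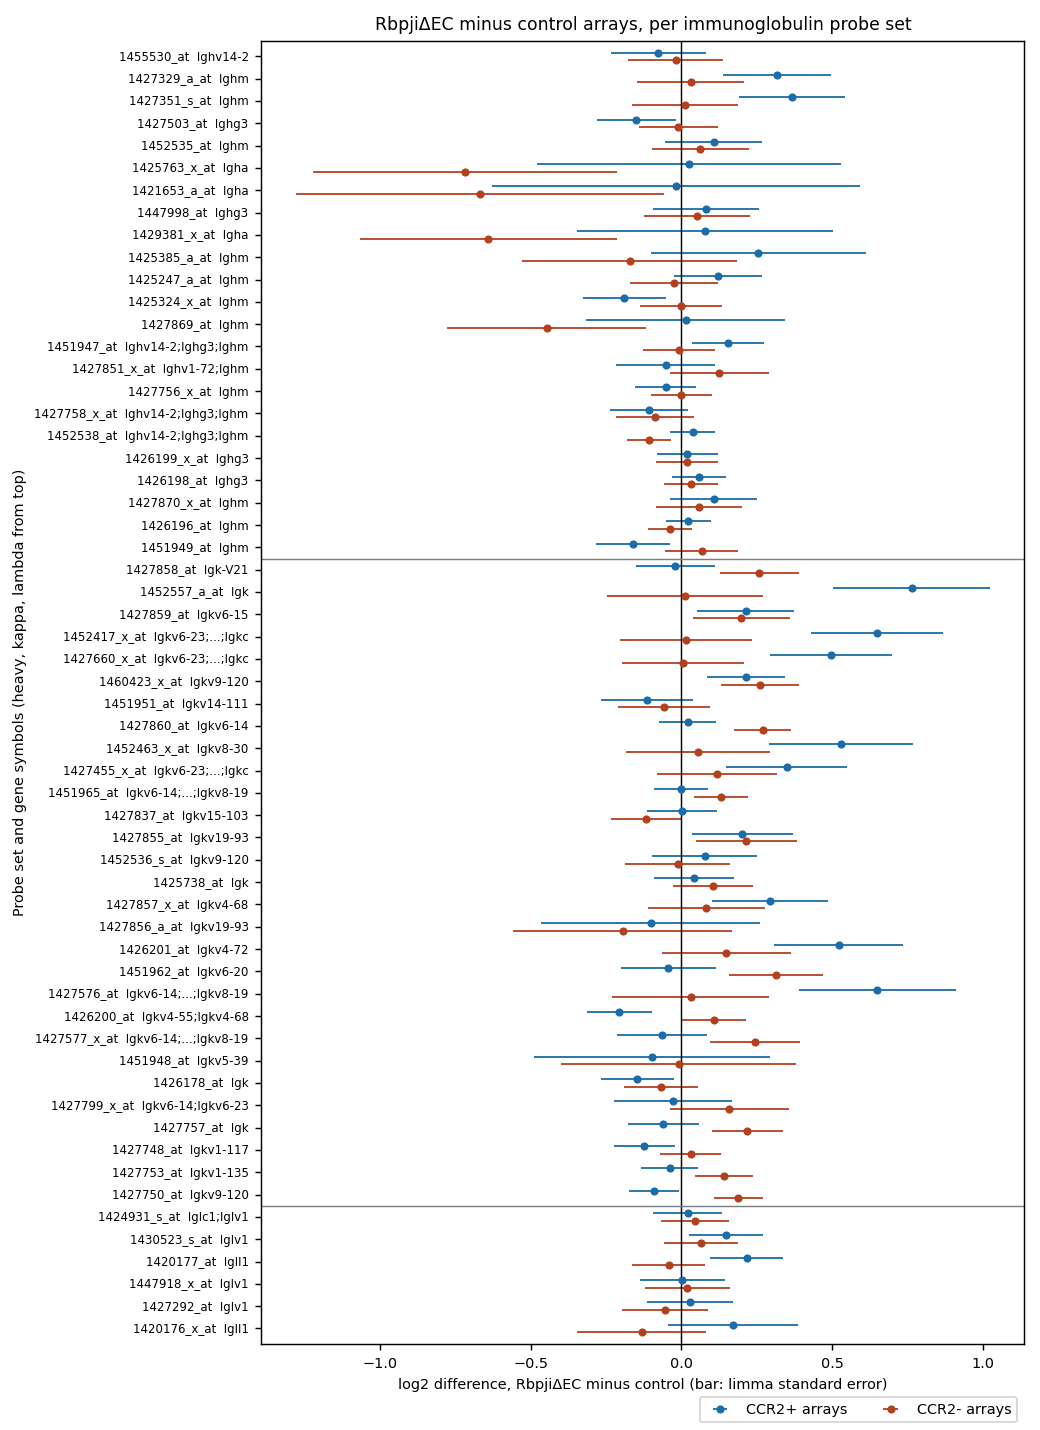
Log2 difference RbpjiΔEC minus control (x axis) of each of the 58 probe sets (rows, heavy, kappa and lambda from the top) with limma standard error bars, in CCR2+ arrays (blue) and CCR2- arrays (red). All points lie between -0.72 and 0.76, the Igha rows have wide bars, and the kappa constant region rows lie to the right of 0 in the CCR2+ arrays, with none called.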

How the data were processed

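RNA of 16 sorted samples was hybridised to Affymetrix mouse arrays. The values are linear intensities per probe set as deposited by the authors, with array means of 821 to 827 in CCR2+ and 481 to 762 in CCR2- columns. The sources used here do not name their normalization. They were log2 transformed and quantile normalized over 16 arrays. Array controls (64) were left out, and 45037 probe sets were tested, unfiltered, by limma 3.58.1 (R 4.3.3) in a single fit of the 4 group means. Its two-sided p-values were adjusted by Benjamini-Hochberg over the whole table, with a threshold of 0.05. Single values had exact permutation tests. The script was tested on simulated data. Errors of differences are limma standard errors. The number of arrays limits the precision, and p-values measure the spread between these samples, which may be technical, since no label names separate animals. No batch is given.

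Symbols come from the platform annotation: 34958 probe sets had 1, 932 several and 9211 were not listed. Of 29 member identifiers 28 were in RefSeq, and 0 symbols changed. In Affymetrix suffixes, _s_at matches several genes and _x_at may cross-hybridise. Of the members 22 carry 1 of these, and 19 share a source record with another. Pathway genes had 1 probe set each, the brightest with a single symbol.

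The members and lists were chosen with earlier results of these data known. The naming rule took constant region and Igll1 probe sets, in each class the 5 largest label differences, members called against their class, and in each genotype comparison and the interaction the 3 smallest p, 43 members in all, and in lists up to 4 genes. Named outside it, after their values were seen, were the kappa segments in locus order, Cd81, Spi1, Xbp1, Sdc1, Jchain, Prdm1, Cd79a, Cd79b, Cd2, Ngp and the other listed genes beyond 4. Alternatives were other normalizations, an intensity filter, other variance models, array weights, a replicate block and leaving out each array.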

Additional observations from a re-analysis of the deposited data

Results flagged for a closer look

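In each group of 4 arrays, the array farthest from the rest was tested by the gap rule of Dixon, 232 groups in all, and chance alone picks about 1 in 20. It picked 10, and 4 of them had a gap above 0.5 log2 units.

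Those with the wide gaps were Ighm on 1427869_at, at 9.08 in the first CCR2- control array, Igkv8-30 on 1452463_x_at, low at 7.20 in the fourth CCR2+ RbpjiΔEC array, 1427799_x_at of Igkv6-14 and Igkv6-23, at 7.11 in the second CCR2- control array, and 1427576_at of Igkv6-14, Igkv6-23 and Igkv8-19, at 8.98 in the first CCR2- RbpjiΔEC array. The others were smaller. Ighm read 6.59 on 1425324_x_at and 7.32 on 1425385_a_at in the third CCR2+ RbpjiΔEC array. Igk on 1426178_at read 7.45 in the third CCR2- control array and Igkv6-14 on 1427860_at 6.93 in the second CCR2+ RbpjiΔEC array. The probe sets shared by Ighv14-2, Ighg3 and Ighm read 6.49 on 1427758_x_at in the first and 6.33 on 1452538_at in the third CCR2+ control array, both low.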

How the results depend on the processing

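The count of members lower in the CCR2+ arrays ran from 36 to 51 in control and from 35 to 51 in RbpjiΔEC mice over all settings, and none was higher in any setting. The lowest counts, 36 and 35, came from the intensity filter, which left only 72 of the 116 member results of both genotypes. They are thus counts out of fewer members and not a weaker result. Genotype and interaction counts were 0 throughout. Of 116 member results on the label, 85 kept direction and call under every setting they were run in (17 of them were not among the 72 results left by the intensity filter), and of the 31 that did not, 2 had a difference of at least 1 in size. Without further normalization the median of all probe sets shifted to 0.19 for the label in RbpjiΔEC mice, -0.16 for the genotype in CCR2- arrays and 0.18 for the interaction.

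Signs turned only for differences that were not called, apart from Plcg2 and Pik3cd. In control mice 1427750_at of Igkv9-120 became -0.069 under median centring and -0.014 without normalization, and Igkv1-135 became -0.12 and -0.062 (-0.026 to 0.093 when single arrays were left out). On omission of single arrays Ighm ran from -0.31 to 0.00823 on 1427870_x_at and from -0.19 to 0.037 on 1451949_at. In RbpjiΔEC mice Igll1 on 1420176_x_at became 0.19 without normalization (-0.11 to 0.19 when single arrays were left out), Ighm 0.098 on 1426196_at and 0.037 on 1427870_x_at, Plcg2 0.030 and Pik3cd 0.086. For the genotype in CCR2- arrays 1427750_at became -0.00643 without normalization. The cause was not tested.

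Replicate numbers are shared by the groups, and no label says that they mark the same animals. They did not meet the condition set for pairing, a correlation of deviations above 0.1 in every pair. Of 24 number pairs 7 had one (range -0.35 to 0.37), and 10 correlated best with their own number. Among these were 6 of the 8 pairs of CCR2+ and CCR2- arrays of the same genotype, but only 4 of the 8 had a correlation above 0.1. Whether the numbers mark the same animals was not tested. With the replicate number as a block, 48 members were called in control and 45 in RbpjiΔEC mice, where the calls of Igkv5-39 and 1452538_at were lost.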
